A study of Homo sapiens with 6 samples.

Results

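Transcripts of 6 chemokines (CXCL12, CCL2, CCL3, CCL3L1, CCL20 and CXCL3) and 2 chemokine receptors (CCR4 and CCR10) were examined in LX-2 cells, an established human hepatic stellate cell line. These 8 genes are the rows with those symbols in a deposited table of 937 genes that the authors had called as changed, and they leave out the interferon-induced chemokines CXCL10 and CXCL11. Every culture had received TGF-β1 (20 ng/mL), a cytokine that drives stellate cells towards a matrix-producing myofibroblast state, for 24 h. The ALB group was then given albiflorin (ALB), a monoterpene glycoside of peony root, for a further 24 h, and the TGF-β1 group, which the labels call control, was given plain medium. Each group had 3 libraries of poly(A) RNA. The ALB concentration of the sequenced cells is not given in the sources used here, unstimulated cells were not analysed here, and whether the 3 libraries of a group stem from different cultures is not said, so each p-value rests on a spread that may be technical. As cell type the labels give hepatocyte cells, although they name the stellate line. LX-2 is a single immortalised line cultured without the hepatocytes and leukocytes of a liver.

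Chemokines are small secreted proteins that bind to heparan sulphate on cells and matrix and guide migrating cells through G-protein-coupled receptors. Homeostatic chemokines such as CXCL12 are made steadily and hold cells in place, whereas inflammatory chemokines such as CCL2, CCL3, CCL20 and CXCL3 are switched on by cytokines, mostly through NF-κB. In the injured liver, stellate cells are a known source of chemokines that attract monocytes and neutrophils, and they also respond to chemokines themselves.

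After ALB the transcripts of these 6 chemokines changed in composition as well as in summed FPKM. CXCL12 fell 7.37-fold and CCL2 fell 2.04-fold, whereas CXCL3 rose 2.54-fold and CCL20 rose 6.66-fold (edgeR fold changes). The scarce transcripts CCL3 and CCL3L1 fell, and the 2 receptors went in opposite directions, CCR4 up 15.2-fold and CCR10 down 1.88-fold. By edgeR's quasi-likelihood test with Benjamini-Hochberg adjustment over the 937 genes, 3 members were higher and 5 were lower with ALB. Over the whole deposited list, 42.5% were called higher and 56.9% lower, and 99.4% were called in either direction, since the table holds genes chosen as changed on the same 6 libraries. That all 8 members passed is therefore no result about chemokines, and the p-values below repeat that choice. The order of sizes and the levels are what the values add. Shares and ratios between higher and lower members add their sizes, since their direction follows from the same choice.

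The library depth was estimated, from the ratio of count to FPKM (fragments counted per kilobase and scaled to the size of the library), and lay between 33800000 and 38100000 fragments for TGF-β1 and between 35800000 and 41600000 for ALB. The counts were tested at these depths. The median log2 fold change over the table was -0.97. With TMM factors, which take most genes as unchanged although all genes of the table had been called, the median moved to -0.37 and the calls went from 398 higher and 533 lower to 400 higher and 331 lower (42.7% and 35.3%), with 3 members higher and 3 lower. With the size factors of DESeq2 the median was -0.27, and 400 genes were called higher and 278 lower (42.7% and 29.7%), by DESeq2 itself (3 members each way) and by edgeR alike (3 members higher, 2 lower). Both sets of factors were computed here from the selected genes of the table alone, not from all genes of the libraries. Limma on log2(FPKM + 1), which understates the change of low genes, called 97.7% of the genes, 41.5% higher and 56.1% lower, and all 8 members. A choice of scaling thus shifts every fold change upwards by about the same amount, and calls that end under it are given with the gene. In bulk RNA, fewer cells of a kind and less RNA per cell cannot be told apart.

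**Figure D1:**
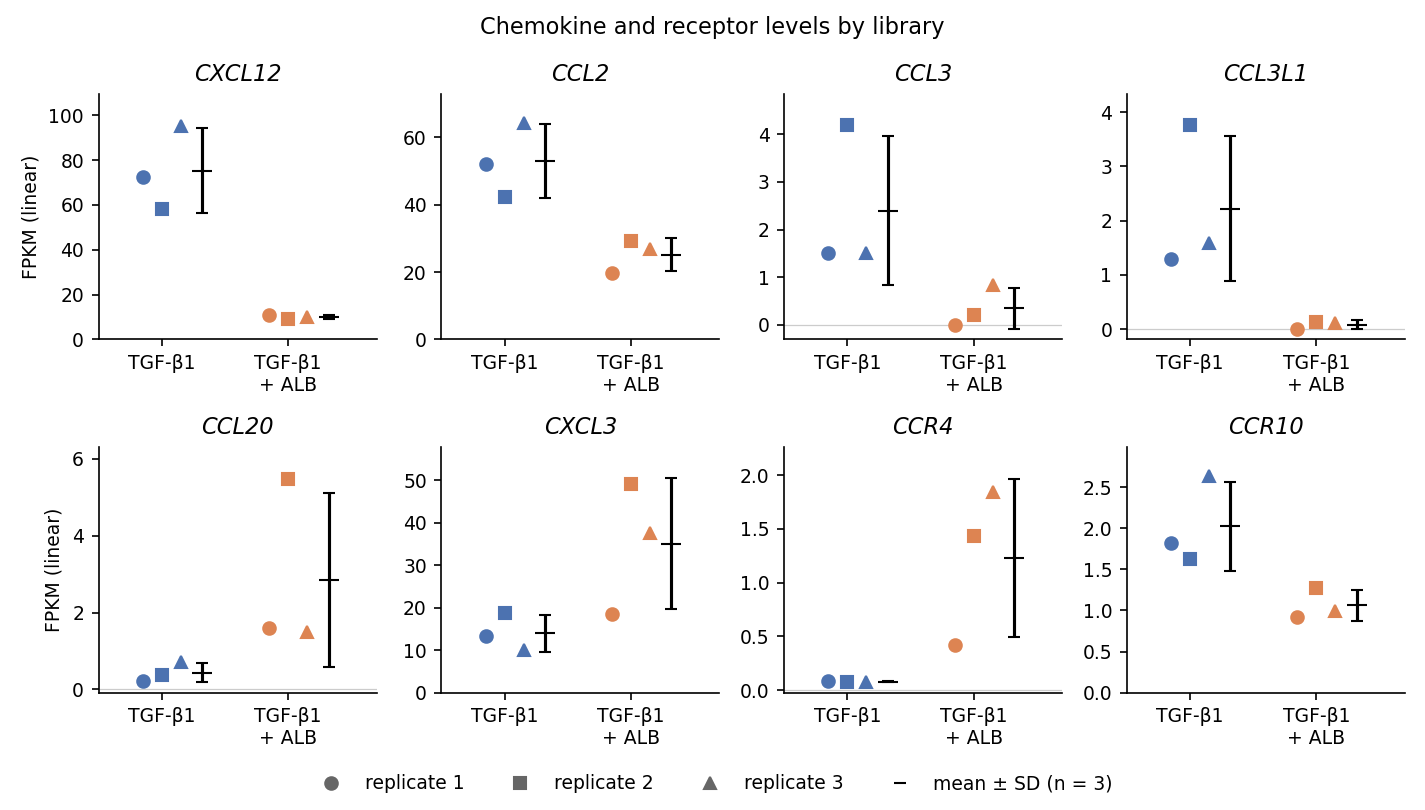
FPKM of each gene (linear axis from 0, a separate scale for each gene) in the 3 TGF-β1 libraries (blue) and the 3 ALB libraries (orange). The marker shape gives the replicate and the black bar the mean ± SD (n = 3). CXCL12 dropped to between 9.24 and 10.8 FPKM in the ALB libraries, and CXCL3 is the member whose groups overlap in FPKM.

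CXCL12, the ligand of CXCR4 and the homeostatic member, was the most abundant of the 8 transcripts without ALB. Its gene (ENSG00000107562.16) occupies chr10:44370165-44386493 (minus strand, GRCh38, annotation GENCODE 29). The level was 72.4, 58.0 and 95.4 FPKM with TGF-β1 alone and 10.8, 9.24 and 10 FPKM after ALB. The lowest TGF-β1 library was thus far above the highest ALB library, and the ALB libraries lay closer together, with a coefficient of variation of 7.75% against 25.1%. The means were 75.2 ± 18.9 and 10 ± 0.776 FPKM (SD, n = 3 each), and the log2 fold change was -2.88 (standard error 0.23, adjusted p = 1.73e-05, edgeR). With TMM factors it was -2.26 and still passed. By size of fold change CXCL12 stood 42nd among the 537 lower genes. The count to FPKM ratio of CXCL12 implied a mean transcript length of 2186 to 2315 nucleotides across the 6 libraries, between the shortest and longest of its 8 annotated transcripts (404 and 3532 nucleotides), so the isoforms mixed in the gene's value kept a similar mean length in both groups.

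CCL2, the main attractant of monocytes through CCR2, fell less than CXCL12. Its gene (ENSG00000108691.9) occupies chr17:34255218-34257203 (plus strand). It was at 52.1, 42.3 and 64.2 FPKM without ALB and at 19.6, 29.1 and 26.9 FPKM with it. The groups did not overlap, and the relative spread was similar in both (coefficient of variation 20.8% and 19.9%). The log2 fold change was -1.03 (standard error 0.22, adjusted p = 0.00196, edgeR), close to the median of the table. This call depends on the scaling, since under TMM the log2 fold change was -0.42 (adjusted p = 0.0792, edgeR). DESeq2, with its own factors from the genes of the table, gave -0.32 (adjusted p = 0.223). Both values lie under the cut of a fold change over 2 by which the authors had selected every gene of the table.

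CCL3 and CCL3L1, which attract monocytes and T cells, were scarce in both groups. The genes lie close together on chromosome 17, CCL3 (ENSG00000277632.1) at chr17:36088256-36090169 and CCL3L1 (ENSG00000276085.1) at chr17:36194869-36196758, both on the minus strand. They are near copies of each other, and their coding sequences (GENCODE 29, stop codon included) are shown because the counts of the one may hold reads of the other. Capitals mark the bases that differ after alignment.
CCL3: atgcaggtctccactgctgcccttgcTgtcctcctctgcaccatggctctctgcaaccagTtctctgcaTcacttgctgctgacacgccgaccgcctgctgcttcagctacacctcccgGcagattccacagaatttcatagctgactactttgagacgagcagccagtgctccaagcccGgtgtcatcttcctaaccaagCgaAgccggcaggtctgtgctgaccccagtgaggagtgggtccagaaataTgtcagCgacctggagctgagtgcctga
CCL3L1: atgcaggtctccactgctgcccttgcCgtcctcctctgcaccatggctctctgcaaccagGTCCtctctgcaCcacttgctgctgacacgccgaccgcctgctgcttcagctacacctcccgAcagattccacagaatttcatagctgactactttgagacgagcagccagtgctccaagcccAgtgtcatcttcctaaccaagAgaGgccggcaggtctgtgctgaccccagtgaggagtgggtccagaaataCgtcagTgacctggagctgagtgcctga
The coding sequences had 282 aligned positions, of which 9 were substituted and 3 were bases present in CCL3L1 and absent from CCL3, and the longest identical stretch was 60 bases. Over the whole spliced transcripts 95.4% of 784 aligned positions were identical. Each gene also overlaps an annotated antisense transcript on the opposite strand, and whether the counting used strand is not given in the sources used here.

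CCL3 had 45, 116 and 40 counts without ALB and 0, 6 and 27 counts with it, which was 1.50, 4.20 and 1.50 against 0, 0.205 and 0.836 FPKM. CCL3L1 had 39, 105 and 42 counts against 0, 4 and 4, which was 1.30, 3.76 and 1.59 against 0, 0.137 and 0.121 FPKM. In both genes TGF-β1 replicate 2 was the highest library and ALB replicate 1 had no count, where 3 counts, about the upper 95% limit for a count of 0 by counting error alone, would be 0.106 FPKM. For CCL3 edgeR gave a log2 fold change of -2.72 with a standard error of 0.83 (adjusted p = 0.0105). That of CCL3L1 was -4.56 (standard error 0.71, adjusted p = 0.000359, edgeR), rank 3 by size among the 537 lower genes. Summed into 1 gene they gave -3.35 (standard error 0.82, adjusted p = 0.00359, edgeR). Without TGF-β1 replicate 2 edgeR's log2 fold change of CCL3 was -2.06 (adjusted p = 0.046) and that of CCL3L1 -3.94, and without ALB replicate 3 that of CCL3 was -4.43. With DESeq2's size factors in edgeR CCL3 did not pass (adjusted p = 0.0608, edgeR).

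The split of counts between the paralogs was even in most libraries. CCL3 took 53.6%, 52.5% and 48.8% of the pair's counts in TGF-β1 replicates 1, 2 and 3, and 60.0% of 10 counts in ALB replicate 2 (exact 95% binomial interval 26.2% to 87.8%). In ALB replicate 3 it took 87.1% of 31 counts (70.2% to 96.4%), an interval that does not reach the TGF-β1 values. These intervals cover counting error only. The paralogs thus differed most in ALB replicate 3.

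**Figure D2:**
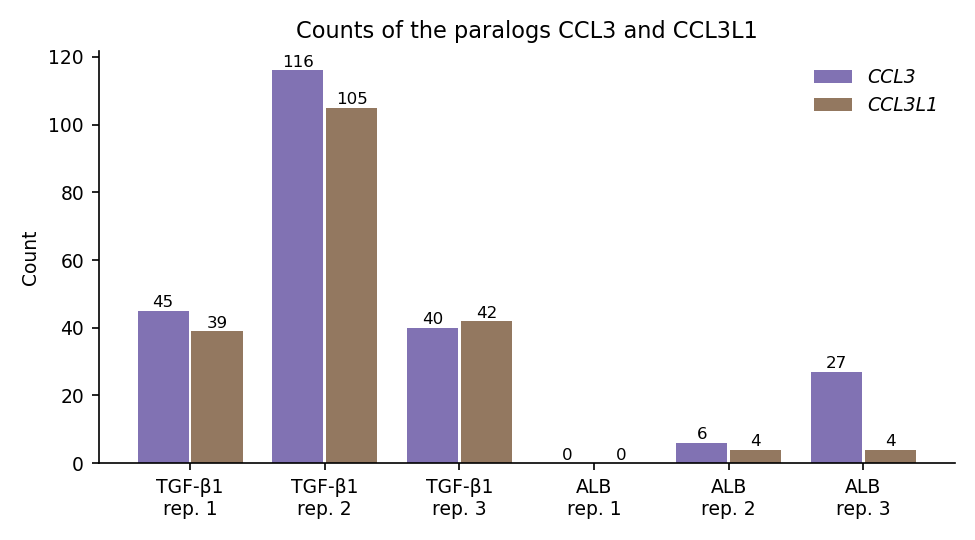
Counts of CCL3 and CCL3L1 in each library (linear axis from 0, not adjusted for depth). The bars of a pair are nearly equal in the TGF-β1 libraries, TGF-β1 replicate 2 is the highest with 116 and 105 counts, and ALB replicate 3 has 27 against 4.

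CXCL3 and CCL20 are the ligands that rose. CXCL3 is a CXC chemokine that attracts neutrophils through CXCR2, and CCL20 is the ligand of CCR6, which is carried by Th17 cells, some B cells and dendritic cells. Both are known as NF-κB targets. The 250 bases before their annotated starts (RefSeq, GRCh38.p14) are shown with those of CXCL12, because these ligands went in opposite directions. Capitals mark matches to a relaxed NF-κB motif, a 10-base consensus searched on both strands that was chosen after the sequences had been seen.
CCL20, chr2:227813592-227813841, plus strand: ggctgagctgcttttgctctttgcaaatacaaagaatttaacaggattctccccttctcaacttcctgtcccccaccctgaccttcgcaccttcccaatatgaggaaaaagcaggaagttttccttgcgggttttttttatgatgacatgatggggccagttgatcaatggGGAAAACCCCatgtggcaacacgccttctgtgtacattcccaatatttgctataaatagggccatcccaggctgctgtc
CXCL3, chr4:74038690-74038939, minus strand: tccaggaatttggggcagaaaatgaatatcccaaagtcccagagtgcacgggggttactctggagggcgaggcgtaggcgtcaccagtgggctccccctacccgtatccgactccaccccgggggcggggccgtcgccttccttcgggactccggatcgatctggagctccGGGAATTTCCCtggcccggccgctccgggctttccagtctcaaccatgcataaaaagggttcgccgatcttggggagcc
CXCL12, chr10:44385098-44385347, minus strand: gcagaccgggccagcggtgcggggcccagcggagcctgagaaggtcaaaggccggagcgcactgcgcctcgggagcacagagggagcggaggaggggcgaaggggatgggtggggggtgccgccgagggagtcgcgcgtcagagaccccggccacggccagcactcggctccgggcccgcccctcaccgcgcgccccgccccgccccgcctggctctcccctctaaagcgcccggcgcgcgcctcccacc
CCL20 had 1 match, which starts 79 bases before its RefSeq start. CXCL3 had 2 overlapping matches that start 79 and 78 bases before its RefSeq start. These starts differ from the GENCODE starts of the spans given with each gene. The CCL20 and CXCL12 windows lie within those spans, and the CXCL3 window overlaps its span. No match was found in the CXCL12 window. Of 35116 windows of this length 12.3% held at least 1 match. TATAAA, searched on both strands, was found in the CCL20 window and not in those of CXCL3 and CXCL12 (10.7% of all windows), and GGGCGG was found 3 times in CXCL12, 1 time in CXCL3 and not in CCL20 (42.6% of all windows). The CXCL12 window was 78.0% G and C, that of CXCL3 62.8% and that of CCL20 46.8%. TGANTCA, TTNNGNAA and ACGTG, searched likewise (6.57%, 33.2% and 18.5% of all windows), were found in none of these 3 windows. Of the 8 members, 5 were matched to a promoter, and CCL2, CCL3L1 and CCR10 were not. Neither CCR4 nor CCL3 had a match to the NF-κB motif in the window searched. CCL3 has 3 such windows, and only that of its outermost start was searched.

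CXCL3 (ENSG00000163734.4, chr4:74036589-74038807, minus strand) was at 13.4, 18.7 and 10 FPKM without ALB and at 18.5, 49.2 and 37.7 FPKM with ALB. In FPKM the groups overlapped, because ALB replicate 1 was just under TGF-β1 replicate 2. The counts that were tested were 554, 705 and 367 without ALB and 756, 1862 and 1738 with it, and at the estimated depths of both libraries (35900000 and 35600000 fragments) ALB replicate 1 lay above TGF-β1 replicate 2. The other 7 members had FPKM values that did not overlap between the groups, 2 higher and 5 lower, as had 95.5% of the table (40.7% higher and 54.9% lower). The log2 fold change of CXCL3 was 1.35 (standard error 0.34, adjusted p = 0.00405, edgeR), and it ranged from 1.06 to 1.64 with each library left out, the extremes being without ALB replicate 2 and without ALB replicate 1.

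CCL20 (ENSG00000115009.12, chr2:227805739-227817564, plus strand) had 7, 11 and 20 counts without ALB and 49, 164 and 53 with it. On the FPKM scale this was 0.213, 0.385 and 0.714 against 1.60, 5.47 and 1.50. ALB replicate 2 was more than 3 times as high as the other ALB libraries, and the coefficient of variation of the group was 79.2%. The log2 fold change was 2.74 (standard error 0.62, adjusted p = 0.00238, edgeR), 24th in size among the 400 higher genes. Without ALB replicate 2 it was 1.87 (adjusted p = 0.00598, edgeR), and without TGF-β1 replicate 3 it was 3.28. CCL20 remained a scarce transcript beside CXCL3 in every library.

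Among the receptors, CCR4, which binds CCL17 and CCL22 and is carried by Th2 and regulatory T cells, rose from the edge of detection. Its gene (ENSG00000183813.6) occupies chr3:32951574-32956349 (plus strand). It had 10, 8 and 8 counts without ALB and 46, 155 and 231 counts with it, or 0.0803, 0.0704 and 0.0787 against 0.419, 1.43 and 1.84 FPKM. Every ALB library was thus above every TGF-β1 library, although ALB replicate 1 was well below the other ALB libraries. The log2 fold change was 3.93 (standard error 0.56, adjusted p = 0.000238, edgeR), rank 10 by size among the 400 higher genes, and it was 3.52 without ALB replicate 3 and 4.34 without ALB replicate 1. Of 23 leukocyte markers listed, ITGAM and NCAM1 were in the table, both higher with ALB. Their summed level was 0.196 to 0.248 FPKM without ALB and 0.450 to 0.830 FPKM with it, and neither was at 0 in any library. PTPRC, CD3D and CD3E were not in the table and were not analysed here, and a part of leukocyte RNA in the CCR4 value was not tested.

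CCR10, a receptor of CCL27 and CCL28 that is known from skin-homing T cells and IgA plasma cells, fell. Its gene (ENSG00000184451.5) occupies chr17:42678889-42683917 (minus strand), where it overlaps CNTNAP1 and a further transcript on the plus strand and another on its own. The level was 1.82, 1.62 and 2.63 FPKM without ALB and 0.918, 1.27 and 0.987 FPKM with it, with no overlap between the groups. The log2 fold change was -0.91 (standard error 0.28, adjusted p = 0.0106, edgeR), smaller in size than that of most lower genes (513th of 537). Under TMM it was -0.31 (adjusted p = 0.266, edgeR) and DESeq2 with its own factors gave -0.21 (adjusted p = 0.519). The call for CCR10 thus ends under these scalings, whose factors came from the selected genes alone. CCR10 was the more abundant receptor in all TGF-β1 libraries, and CCR4 was above it in ALB replicates 2 and 3.

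**Figure D3:**
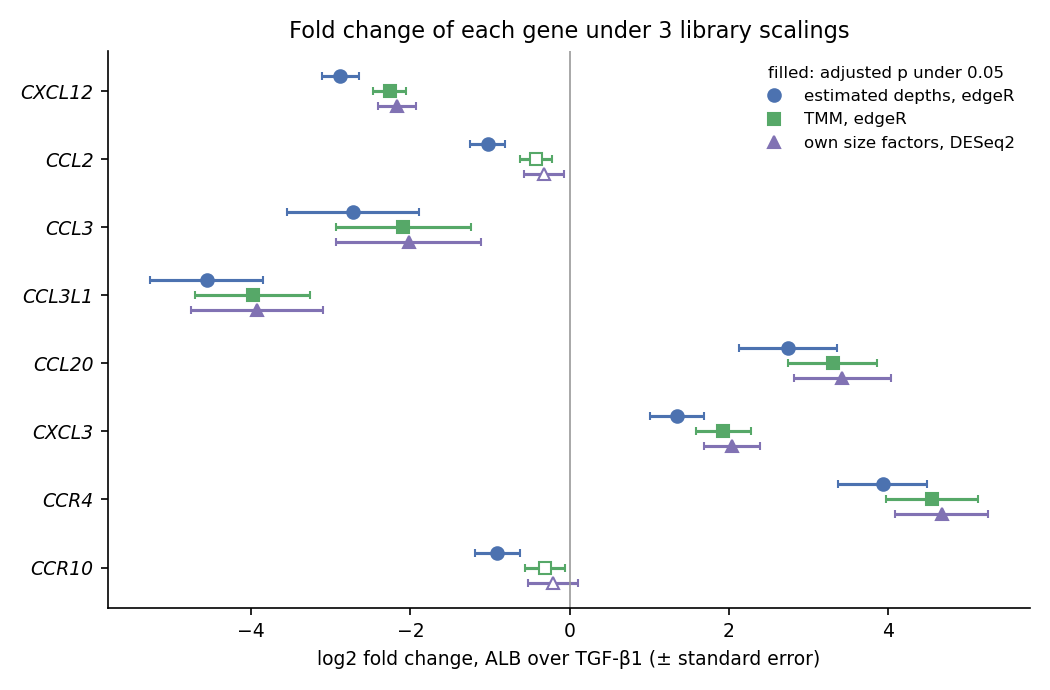
Log2 fold change (ALB over TGF-β1, ± standard error) of the 8 genes with counts scaled to the estimated depths (circles, edgeR), with TMM factors (squares, edgeR) and with DESeq2's own size factors (triangles, DESeq2). Filled symbols passed an adjusted p of 0.05. All symbols keep their side of 0, and those of CCL2 and CCR10 are open under the last 2 scalings.

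Set side by side per kilobase, the members spanned a wide range of levels, and their order changed with ALB. In each of the 3 TGF-β1 libraries CXCL12 came first, then CCL2, then CXCL3, and CCL20 was the lowest of the ligands. The ranges of CXCL12 (58.0 to 95.4 FPKM) and CCL2 (42.3 to 64.2 FPKM) overlapped across libraries, and those of CCL3, CCL3L1 and CCR10 overlapped one another (1.30 to 4.20 FPKM in all). With ALB, CXCL3 was first in replicates 2 and 3 and CCL2 in replicate 1, where their ranges overlapped (18.5 to 49.2 and 19.6 to 29.1 FPKM). CXCL12 was below both in each ALB library. CCL20 came next, above CCL3 and CCL3L1 in each ALB library, and its range (1.50 to 5.47 FPKM) overlapped that of CCR4 (0.419 to 1.84 FPKM).

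The summed level of the 6 ligands was 141, 127 and 173 FPKM without ALB and 50.5, 93.3 and 77.1 FPKM with it, with means of 147 ± 23.7 and 73.6 ± 21.6 FPKM (SD, n = 3 each). The fall of this sum rests on the depth scaling. It was not recalculated with TMM or DESeq2 factors, under which the fold changes moved upwards. The share of one ligand in this sum does not depend on depth or on any scaling of the libraries. CXCL12 made up 51.4%, 45.5% and 55.0% of the sum without ALB and 21.4%, 9.90% and 13.0% with it, a change of the mean from 50.6% to 14.7%. CXCL3 went the other way, from 9.49%, 14.7% and 5.77% to 36.7%, 52.7% and 48.9%, with means of 9.99% and 46.1%. Neither share overlapped between the groups, and their mean changes were of nearly the same size, -35.9 and 36.1 percentage points. Shares of a sum are bound to each other, so a fall in the share of CXCL12 must appear as a rise elsewhere. In level the changes were unlike, -65.2 FPKM for CXCL12 and 21.1 FPKM for CXCL3. CCL2 held 37.0%, 33.2% and 37.0% of the sum without ALB and 38.7%, 31.2% and 34.9% with it, ranges that overlapped (difference of means -0.793 percentage points, two-sided exact permutation test, p = 0.7). This p does not show that the share was equal, and with counts in place of FPKM the share of CCL2 was higher with ALB by 6.22 percentage points (exact permutation p = 0.1). The share of CCL20 lay between 0.152% and 0.412% without ALB and between 1.94% and 5.86% with it. ALB replicate 3 kept CCL3 at 1.08%, within the range of the TGF-β1 libraries (0.866% to 3.29%). For the sum and for the shares of CXCL12, CXCL3, CCL20 and CCL3L1 the exact permutation test gave p = 0.1, the smallest that 3 libraries against 3 allow, and for CCL3 p = 0.3. These members had been chosen as changed on the same libraries, so the separation of their shares is no further support. The sum covers chemokines of the table, so other chemokines the cells may express are outside it.

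**Figure D4:**
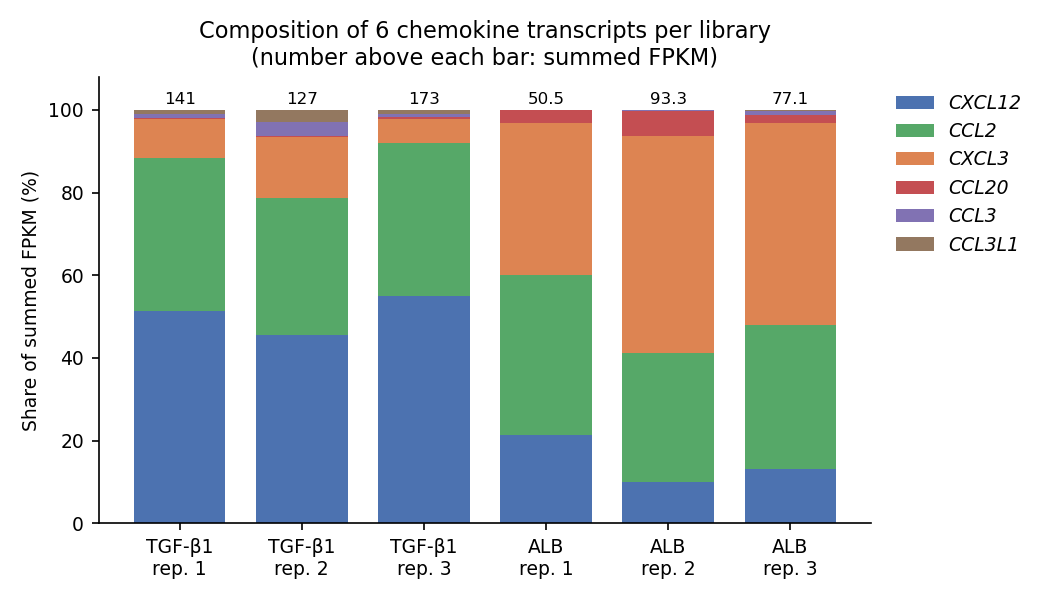
Stacked shares (percent, from 0 to 100) of the 6 chemokine transcripts in their summed FPKM, 1 bar per library, with the summed FPKM printed above. CXCL12 shrinks from between 45.5% and 55.0% to between 9.90% and 21.4% of the bar, CXCL3 grows to between 36.7% and 52.7%, and CCL2 holds between 31.2% and 38.7% in all 6 libraries.

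Ratios between members within a library, likewise free of depth, gave the contrasts between the homeostatic, the monocyte-attracting and the rising ligands. The log2 ratio of CXCL12 to CCL2 was 0.48, 0.45 and 0.57 without ALB and -0.86, -1.65 and -1.43 with it, a difference of -1.81, so CXCL12 lay above CCL2 in each TGF-β1 library and below it in each ALB library. For CXCL3 to CXCL12 the log2 ratio was -2.44, -1.63 and -3.25 without ALB and 0.78, 2.41 and 1.91 with it, a difference of 4.14. As a ratio of geometric means, CXCL3 stood at 0.184 times the CXCL12 level without ALB and at 3.25 times with it. For CCL20 to CCL2 the log2 ratio went from -7.86, -6.74 and -6.47 to -3.61, -2.41 and -4.16, a difference of 3.64, and CCL20 stayed below CCL2 in each library. None of the 3 ratios overlapped between the groups, and each reached p = 0.1 in a two-sided exact permutation test (0.1 also after adjustment over the 3 ratios), which is the smallest p the design allows. The ratios of CXCL3 to CXCL12 and of CCL20 to CCL2 each set a higher member against a lower member. All members had been chosen as changed on the same libraries, so this separation is no further support.

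**Figure D5:**
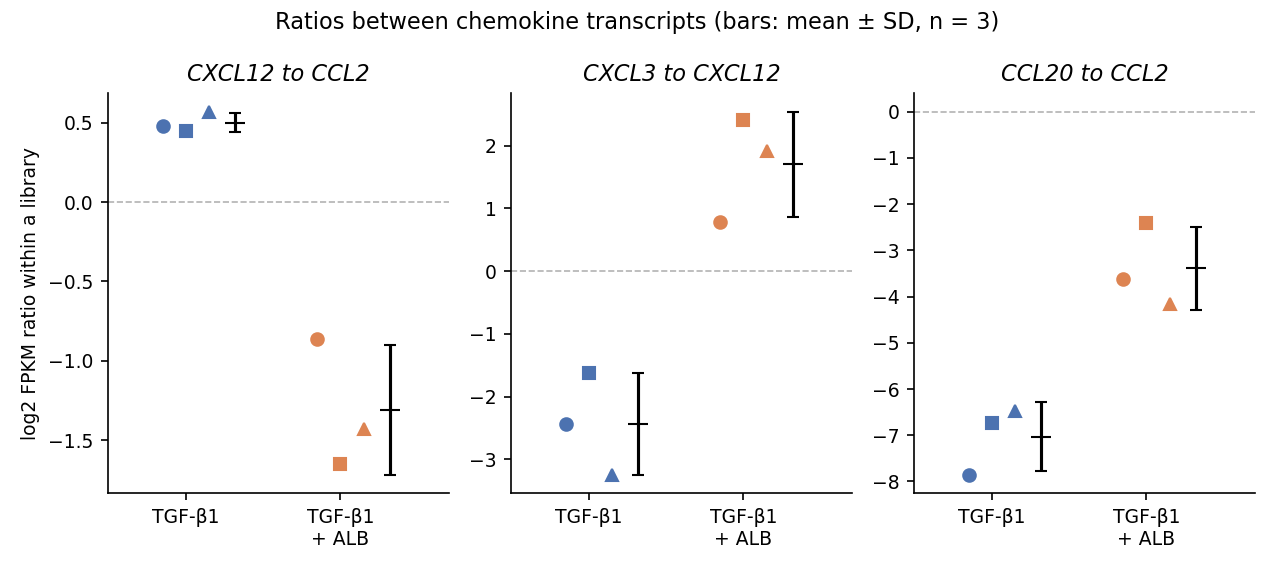
Log2 ratio of FPKM values within each library for CXCL12 to CCL2, CXCL3 to CXCL12 and CCL20 to CCL2 (0.01 FPKM added to each value). Points are libraries, black bars the mean ± SD (n = 3) and the dashed line equal levels. CXCL12 crosses from above CCL2 to below it, and CXCL3 from below CXCL12 to above it.

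Variation between ALB libraries differed among the members. The coefficients of variation in that group were 7.75% for CXCL12, 17.4% for CCR10 and 19.9% for CCL2, 44.0%, 59.5% and 79.2% for the higher members CXCL3, CCR4 and CCL20, and 87.1% and 126% for CCL3L1 and CCL3, the lower members with few counts. ALB replicate 1 was the lowest of its group in 4 of the 5 lower and 2 of the 3 higher members, whereas over the table it was the lowest in 34.7% of the lower and 34.2% of the higher genes. ALB replicate 2 was the highest in 2 of the 3 higher members and in 58.8% of the higher genes of the table.

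Other genes of the chemokine system were few in the table. Of 48 chemokine ligands listed 8 were present, the 6 members and the interferon-induced CXCL10 and CXCL11, and of 24 receptors only CCR4 and CCR10. CXCL10 fell from 0.927 ± 0.127 to 0.282 ± 0.129 FPKM (log2 fold change -1.68) and CXCL11 from 1.49 ± 0.384 to 0.355 ± 0.378 FPKM (log2 fold change -2.05). With DESeq2's size factors neither call was firm, since CXCL10 did not pass in DESeq2 (adjusted p = 0.109) nor CXCL11 in edgeR (adjusted p = 0.0602). The median log2 fold change of the 8 ligands was -1.86, against -0.97 for all 937 genes. Receptors of the ligands, CXCR4 and ACKR3 for CXCL12, CCR2 for CCL2, CCR6 for CCL20 and CXCR2 for CXCL3, were not in the table, nor were the ligands of CCR4 and CCR10, and none of these was analysed here.

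Among genes that hold or process chemokines, 2 of 27 heparan sulphate genes and 2 of 16 protease genes were in the table. SDC4, a heparan sulphate proteoglycan of the cell surface, rose from 87.0 ± 7.33 to 217 ± 14.4 FPKM, whereas HS3ST3A1, which adds 3-O-sulphate to heparan sulphate, fell from 4.45 ± 0.809 to 1.43 ± 0.156 FPKM. CPM, a carboxypeptidase of the cell surface, rose (log2 fold change 1.73) and FAP, a serine protease of activated fibroblasts, fell (log2 fold change -1.53). Of 44 genes that carry signals from G-protein-coupled receptors 4 were present, 1 higher and 3 lower, beside 42.5% higher and 56.9% lower over the whole table. GNG2, a G-protein gamma subunit, rose from 1.34 ± 0.0983 to 4.42 ± 1.68 FPKM. PLCB4, a phospholipase C, fell from 13.8 ± 2.50 to 2.77 ± 1.00 FPKM, and RGS4 and RGS14, which shorten G-protein signals, fell as well (log2 fold change -1.80 and -1.21). RGS14 did not pass under TMM (adjusted p = 0.0701, edgeR).

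Of 31 NF-κB subunits and NF-κB-responsive genes, 7 were in the table and they went both ways, 3 higher and 4 lower, with a median log2 fold change of -0.91, near that of the table. The higher genes were VCAM1 (log2 fold change 2.36) and ICAM1 (1.51), adhesion molecules for leukocytes, and LIF (1.82), a cytokine of the IL-6 family. The lower genes were the cytokines IL6 (-1.24) and IL1A (-0.94), the protease PLAU (-1.07) and the regulator NFKBIZ (-0.91), and none of these 4 passed under TMM, while the 3 higher genes did. CXCL3 and CCL20 thus rose beside ICAM1 and VCAM1, and CCL2 and IL6 fell. Of 23 AP-1, ETS, EGR and C/EBP factors listed, ATF3, a stress-induced factor, rose from 4.52 ± 1.43 to 15.9 ± 4.92 FPKM and EGR2 fell from 9.98 ± 1.93 to 2.37 ± 1.34 FPKM. Of 16 genes of hypoxia and CXCL12 regulation, ANGPTL4, NDRG1 and PDGFRA rose (log2 fold change 1.56, 1.21 and 1.39), and HIF1A, a factor that raises CXCL12 in endothelium, fell from 144 ± 20.7 to 74.9 ± 31.0 FPKM (log2 fold change -0.94), a call that ends under TMM (adjusted p = 0.197, edgeR).

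Cell type markers present in the table were listed as well. Since the table holds genes called as changed with ALB, they describe a response to ALB and cannot check the identity of the line. Of 28 stellate cell and myofibroblast markers 11 were present, 10 lower and 1 higher with ALB. The largest fold changes among the 11 markers were those of COL3A1 (log2 fold change -3.04), ACTG2 (-2.62), COL1A2 (-2.55) and FN1 (-1.70). The higher marker was PDGFRA (log2 fold change 1.39), with means of 0.192 FPKM without ALB and 0.551 FPKM with it. COL1A2 was scarce as well, with means of 0.601 FPKM without ALB and 0.1 FPKM with it. Under TMM 7 of the 10 lower markers were still called lower, while over the whole table the lower calls went from 533 to 331. The summed level of the 11 markers was 1630 to 1970 FPKM without ALB and 492 to 805 FPKM with it. ACTA2 and COL1A1 were not in the table. PECAM1 and TEK, 2 of 16 endothelial markers, were lower (summed level 1.64 to 2.12 against 0.821 to 1.03 FPKM), a call that neither kept under TMM. KRT7, KRT8, KRT18 and SOX9, 4 of 17 hepatocyte and epithelial markers, were lower too (290 to 296 against 122 to 160 FPKM, 2 of the 4 under TMM). The part of these marker changes in the chemokine values was not tested.

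The genes with a profile nearest to each main ligand were found by the root mean square difference of centred log2(FPKM + 0.1) over the 6 libraries, among 796 other genes with a symbol. For CXCL12 they were THBS1, COL3A1 and SSTR1, each at 0.16 log2 units. THBS1, thrombospondin 1, was at 158 FPKM without ALB and 25.3 FPKM with it. For CCL2 they were CCDC88B (0.09), KRT7 (0.12) and ZBTB38 (0.14), and for CXCL3 CCDC194 (0.19), AOC2 (0.23) and KIAA0040 (0.28). The added 0.1 FPKM shrinks the changes of scarce genes, so their likeness may rest on it. CCDC88B had means of 0.547 and 0.201 FPKM and a log2 fold change of -1.46 (CCL2 -1.03). KIAA0040 had means of 0.253 and 0.916 FPKM and a log2 fold change of 1.96 (CXCL3 1.35). KRT7, at 10.7 and 4.77 FPKM, was not scarce (-0.97). CCL20 had no profile as near, the nearest being CHAC1 (0.47), SLC7A11 (0.53) and VCAM1 (0.54). The likeness is a description over 6 libraries in 2 groups that share the treatment difference.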

How the data were processed

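RNA of 6 LX-2 libraries (3 TGF-β1, 3 ALB) was sequenced by Illumina NovaSeq X Plus. The authors deposited, per library, whole-number counts and FPKM of each of the 937 genes called with DESeq2 (fold change over 2, P under 0.01). CASAVA 1.4 is named in the submitters' processing notes, as are mouse builds (mm9, mm10), although the rows are human, with 0 mouse IDs. For the aligner, counter, annotation and human build, the answer is not given in the sources used here. Columns marked A and T were matched to the ALB and TGF-β1 samples by number. For T, whose samples are titled as controls, this is the only ground within the group, and besides replicate names it touches the block alone.

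Column sums of selected genes are not depths. Relative depth was the median count to FPKM ratio over 565 genes (minimum 50 counts per library), and 41 genes with a single GENCODE 29 transcript set the scale. With these depths as library sizes, edgeR 4.0.16 tested the counts (quasi-likelihood, standard error from the F statistic), adjusted by Benjamini-Hochberg over 937 genes. The code was also run on simulated counts in which most genes were unchanged. Since the real table holds genes selected as changed, that run does not cover its setting. Other software was DESeq2 1.42.0, limma 3.58.1, scipy 1.17.1, R 4.3.3 and Python 3.11.15. Shares and ratios were tested by two-sided exact permutation.

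The members, gene lists and tests were chosen with earlier results of these data known. Named genes are the 8 members, other listed chemokine genes in the table, up to 4 genes with the largest fold changes per further list, and the 3 nearest profiles of 4 ligands. RGS14 is among the 4 so named, and IL1A, PLAU and NFKBIZ were added after their values were seen, to name the whole list. Alternatives were TMM and DESeq2 factors, DESeq2, limma on log2(FPKM + 1) and log2(FPKM + 0.1), a minimum mean of 10 counts, a block on the column number, the paralogs summed, and each library left out. For shares and ratios they were all chemokine ligands of the table, counts for FPKM, and 0.1 for the 0.01 FPKM added.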

Additional observations from a re-analysis of the deposited data

How the results depend on the processing

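With the depths estimated, 5 members were called lower. With TMM factors 3 were, with DESeq2's size factors in edgeR 2, and with DESeq2 and its own size factors 3. In edgeR with DESeq2's size factors CCL2 and CCR10 had adjusted p = 0.189 and 0.461. The 3 higher members were called under each of these settings, as were 42.5% to 42.7% of the table. All 8 members passed in edgeR at the estimated depths (931 genes of the table) and with each library left out (903 to 915 genes), in DESeq2 at these depths (934 genes) and in limma with 1 or 0.1 added to FPKM (915 and 920 genes), the weakest being CCR10 without TGF-β1 replicate 3 (adjusted p = 0.0489, edgeR). The minimum of 10 counts removed no gene. Replicate numbers gave no evidence of pairing, since the deviations of same-numbered columns correlated at 0.05, -0.02 and -0.11 over 812 genes. These values cannot show that the samples were unpaired. With the replicate block 925 genes and all 8 members passed, and the exact sign-flip permutation test of shares and ratios cannot go below p = 0.25 with 3 pairs. With counts in place of FPKM, which weights long transcripts, the share of CXCL12 differed by -44.3 percentage points and that of CCL2 turned from -0.793 to 6.22 (exact permutation p = 0.1). With each library left out the difference in share was -39.2 to -33.5 for CXCL12, 32.8 to 40.8 for CXCL3, 2.27 to 4.22 for CCL20 and -2.69 to 1.09 for CCL2, the last also changing sign without ALB replicate 2. Adding CXCL10 and CXCL11 to the sum moved no difference by more than the spread between libraries. CCL3, CCL3L1, CCL20 and CCR4 rest on few counts in 1 group, so their fold changes are less certain than those of CXCL12, CCL2 and CXCL3.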
